A study of Rattus norvegicus with 10 samples.

Results

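The genes described are 7 connexin genes, Gjc3, Gjc1, Gja1, Gjb1, Gjb2, Gjb6 and Gja4, taken by gene symbol from the 23188 transcript clusters of a microarray data set on rat enteric glial cells (EGC). Each of the 7 genes was represented by 1 transcript cluster, the unit in which Clariom S arrays report a gene. JUG2 cells, an EGC line derived from a primary culture of the rat enteric nervous system (ENS), carried lentiviral vectors for a doxycycline-dependent transactivator, driven by the EF1α promoter, and for either Sox10 or, as transduction control, GFP, and were kept under puromycin selection. The 4 groups were SOX10 -dox (4 arrays), SOX10 +dox (4 arrays), GFP -dox (1 array) and GFP +dox (1 array), where +dox stands for treatment of the same line with 1 µg/ml doxycycline over 48 h. Untreated SOX10 cells thus carry the same transgene as the treated ones, and it is not stated in the sources used here whether a line was 1 clone or a mixture of transduced cells. The question addressed was which connexin transcripts differ when SOX10 is induced in these cells.

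Connexins are membrane proteins that assemble into hemichannels, and the hemichannels of neighbouring cells dock into gap junctions, through which ions and small metabolites pass. Unpaired hemichannels can also open to the outside and release ATP. In the ENS, glial networks coupled by Gja1 (Cx43) carry calcium waves, whereas myelinating glia use another set, with Gjb1 (Cx32) and, in rodents, Gjc3 in Schwann cells and oligodendrocytes. Gjb6 (Cx30) couples astrocytes, and it is coexpressed with its chromosomal neighbour Gjb2 (Cx26) in the cochlea. Gjc1 (Cx45) is known from smooth muscle and cardiac conduction tissue, and Gja4 from vascular endothelium.

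The sequences around the start sites are shown for Gjc3, the member that rose, for Gjb1, a connexin of Schwann cells known as a target of SOX10, and for Gja1, the connexin of enteric glia. RefSeq windows of 300 bases (250 before and 50 after the start of a transcript, build GRCr8) matched 6 of the 7 members by symbol, with 7 windows in all since Gjb6 has 2. Capitals mark ACAAAG or ACAAT on either strand, letters found in binding sites of SOX proteins. The sequences run 5′ to 3′ along the strand of the gene.
Gjc3, GRCr8 chr12:22024518-22024817, minus strand: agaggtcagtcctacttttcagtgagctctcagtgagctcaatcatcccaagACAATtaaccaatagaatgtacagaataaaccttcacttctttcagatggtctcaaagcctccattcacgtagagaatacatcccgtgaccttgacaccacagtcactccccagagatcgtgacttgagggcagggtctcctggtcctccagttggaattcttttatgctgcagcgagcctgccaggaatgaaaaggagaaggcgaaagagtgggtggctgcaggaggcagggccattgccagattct
Gjb1, GRCr8 chrX:70541595-70541894, plus strand: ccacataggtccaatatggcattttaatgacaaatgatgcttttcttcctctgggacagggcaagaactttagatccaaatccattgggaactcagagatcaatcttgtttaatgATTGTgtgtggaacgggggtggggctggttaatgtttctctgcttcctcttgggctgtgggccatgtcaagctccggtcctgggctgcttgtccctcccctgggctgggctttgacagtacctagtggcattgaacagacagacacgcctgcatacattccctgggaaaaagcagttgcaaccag
Gja1, GRCr8 chr20:36302314-36302613, plus strand: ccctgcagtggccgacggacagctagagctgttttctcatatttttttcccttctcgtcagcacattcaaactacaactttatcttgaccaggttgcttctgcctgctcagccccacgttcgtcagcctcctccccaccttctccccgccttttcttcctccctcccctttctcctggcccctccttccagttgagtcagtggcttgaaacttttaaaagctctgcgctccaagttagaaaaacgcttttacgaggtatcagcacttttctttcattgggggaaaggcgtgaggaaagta
The Gjc3 window holds ACAAT once, starting 198 bases before the start site. The Gjb1 window holds ACAAT once on the opposite strand, printed as ATTGT, and the first printed letter lies 135 bases before the start site. The Gja1 window holds neither. Of the members not shown, the Gja4 window and 1 of the 2 Gjb6 windows hold 1 match each, and the Gjb2 window holds none. Such matches are common, since ACAAAG occurred in 18.8% and ACAAT in 33.7% of 33469 RefSeq promoter windows of this length, and either of them in 44.9%. A match is a description of the letters and not a measured binding site.

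Sox10, the gene that doxycycline induces by design, was checked first on each array. Its log2 signal was 6.39, 6.11 and 6.43 on replicates 2, 3 and 4 of SOX10 -dox and 12.93, 12.62 and 13.02 on those of SOX10 +dox. Both replicate 1 arrays ran against their labels, with 12.90 on the one labelled SOX10 -dox and 6.74 on the one labelled SOX10 +dox. The values of replicate 1 are therefore given apart, and the comparison rests on replicates 2 to 4 (n = 3 and 3). Medians over all transcript clusters ranged from 6.69 to 6.86 between the arrays. In this comparison 525 of 23188 transcript clusters were called higher and 287 lower, where a call needed an adjusted p under 0.05 (limma, Benjamini-Hochberg) and a difference of at least 2-fold, and 3428 (14.8%) had an unadjusted p under 0.05. Keeping all 8 SOX10 arrays under their labels, limma called 0 in either direction, with 863 at an unadjusted p under 0.05.

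Gjc3, the connexin of myelinating glia, was the only one of the 7 genes that passed the test. Its log2 signal was 5.85, 5.65 and 5.64 on replicates 2, 3 and 4 of SOX10 -dox and 9.26, 7.58 and 8.73 on those of SOX10 +dox. Every +dox array lay above every -dox array, and replicate 3 was the lowest of the +dox arrays. Gjc3 rose from 5.71 ± 0.12 to 8.52 ± 0.86 (SD, n = 3 and 3), a log2 difference of 2.81 ± 0.36 (SE) or 6.99-fold (95% interval of the log2 difference 2.01 to 3.61, adjusted p = 0.00133). Within replicates 2, 3 and 4 the log2 difference was 3.40, 1.92 and 3.09. In bulk RNA, more cells with the transcript and more transcript per cell cannot be told apart. By size, this placed Gjc3 at rank 78 among the 525 transcript clusters called higher. The replicate 1 arrays had the opposite order, as for Sox10, with 8.97 under the label SOX10 -dox and 5.34 under the label SOX10 +dox. With these arrays kept as labelled (n = 4 and 4), the log2 difference of Gjc3 was 1.20 ± 0.87 (adjusted p = 0.973), which did not pass the test. The transcript cluster of Gjc3 has its name only from the study's table of differentially expressed genes (DEG), which lists genes that differed on arrays of this series, so its call is not independent of how it was named.

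Among the 7 members, 1 was called higher and 0 lower, where 2.26% of all transcript clusters were called higher and 1.24% lower. Since Gjc3 owes its name to a list of genes that differed on these arrays, the count of 1 is not read against that share. The groups of replicates 2 to 4 did not overlap for Gjc3 (+dox higher, as for 9.5% of all transcript clusters) and for Gja1 (+dox lower, as for 10.5%). The median log2 difference was 0.13 over the 7 members and -0.02 over all transcript clusters.

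**Figure D1:**
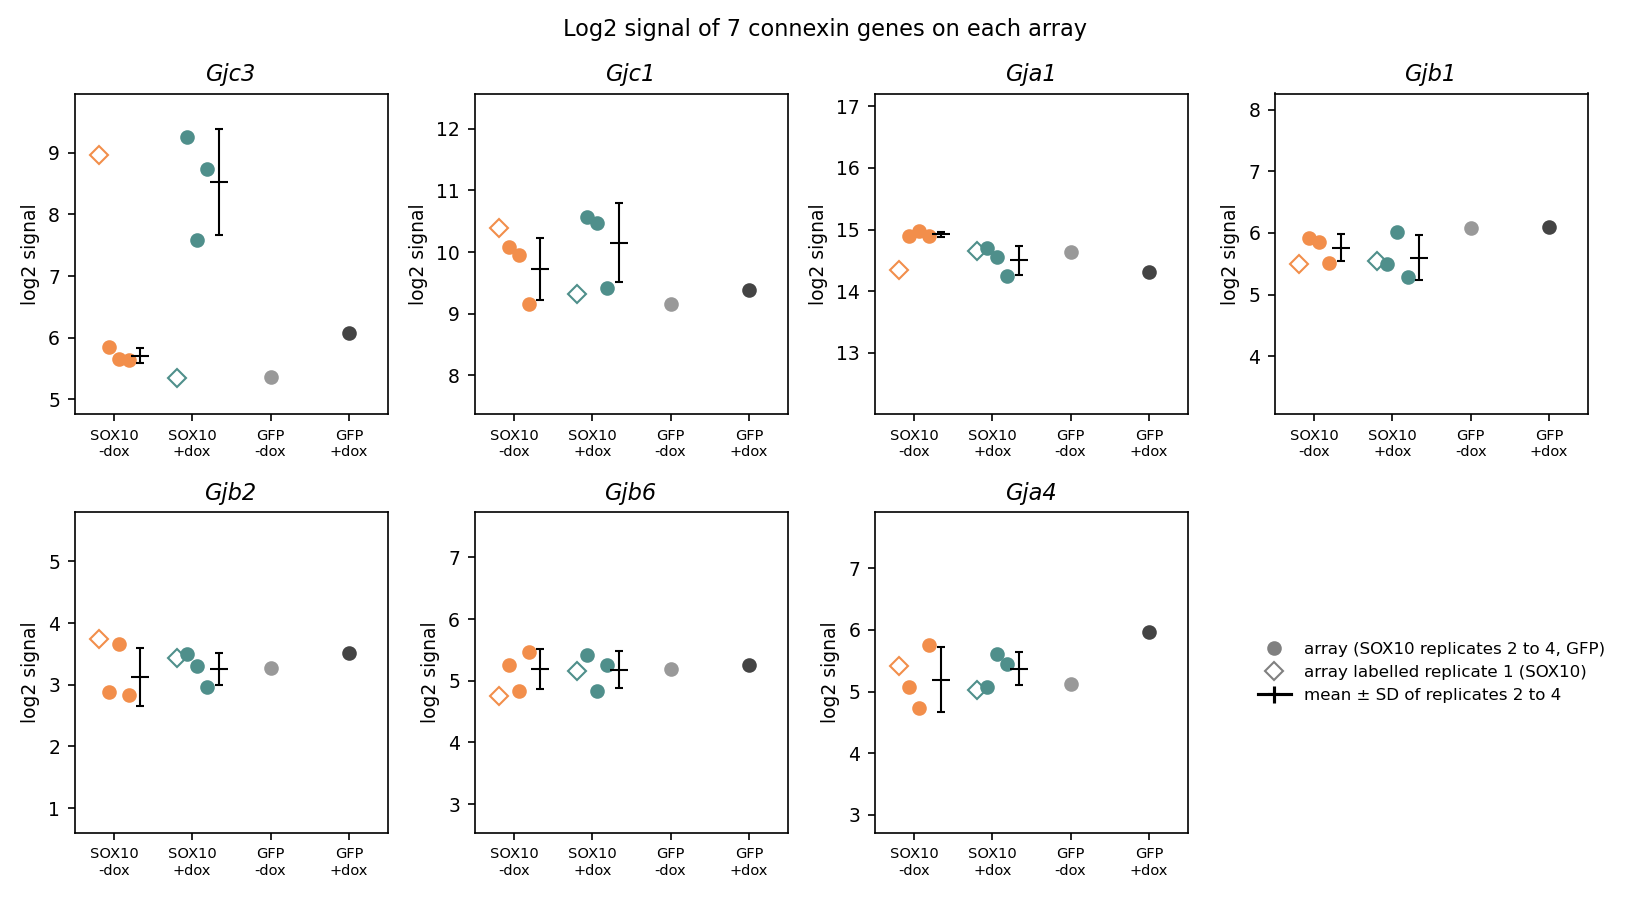
Log2 signal (y axis, a span of the same size in each panel) of the 7 connexin genes by group (x axis), 1 point per array, with open diamonds for the SOX10 arrays labelled replicate 1 and black bars for the mean ± SD of replicates 2 to 4. For Gjc3, SOX10 +dox replicates 2 to 4 lie between 7.58 and 9.26 and the SOX10 -dox replicates between 5.64 and 5.85, while the diamonds lie the other way round. For the other 6 genes the groups lie close together.

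In the GFP line, the Gjc3 signal was 5.36 without and 6.08 with doxycycline, both below the 3 SOX10 +dox arrays. The log2 difference of 0.72 ± 0.63 (SE, 1 array per group, assumed to vary like the SOX10 arrays) did not pass the test (adjusted p = 0.899), and it has no replicate check. Over all transcript clusters, 0% (0 of 23188) were called in the GFP line, with 1458 at an unadjusted p under 0.05 in limma. The difference between the doxycycline effects of the SOX10 and the GFP line was 2.09 ± 0.73 for Gjc3 (95% interval 0.49 to 3.69), which did not pass the test after adjustment (adjusted p = 0.41). Of all transcript clusters, 0.358% passed that test with the larger effect in the SOX10 line, and 0 of the 7 members did. For the other 6 members this difference lay between -0.66 ± 0.58 (Gja4) and 0.21 ± 0.70 (Gjc1). Between the untreated lines (SOX10 -dox minus GFP -dox), Gjc3 differed by 0.35 ± 0.51, and 0% of all transcript clusters were called (0 of 23188, with 771 at an unadjusted p under 0.05 in limma). In order of level, Gjc3 was thus highest in SOX10 +dox, followed by GFP +dox, SOX10 -dox and GFP -dox, and neither the test between the GFP arrays nor that between the untreated lines passed, while SOX10 -dox and GFP +dox were not compared.

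**Figure D2:**
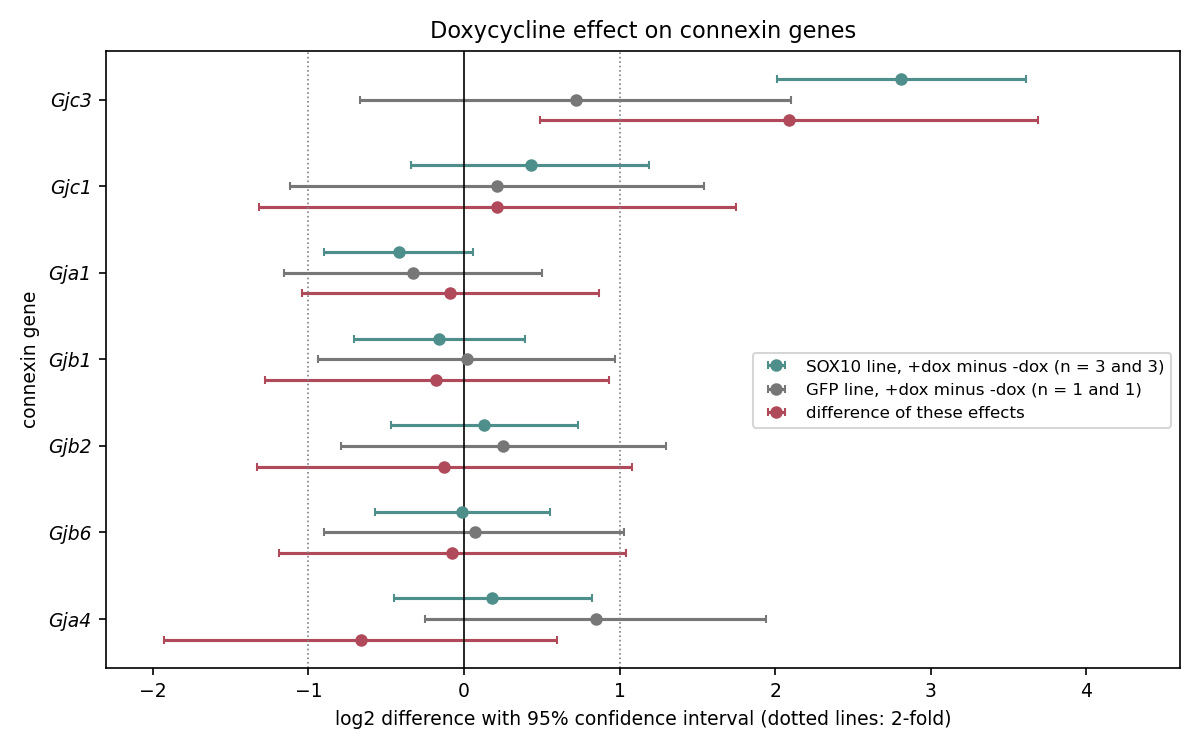
Log2 differences (x axis) of the 7 connexin genes (y axis) with 95% confidence intervals, for doxycycline in the SOX10 line (replicates 2 to 4), for doxycycline in the GFP line and for the difference of these effects. For the SOX10 line, the interval of Gjc3, 2.01 to 3.61, lies above the dotted line for 2-fold, and the intervals of the other 6 genes include 0.

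The 5 named genes whose profile was nearest to that of Gjc3 were Mapk8ip1, Ttyh2, Aatk, Cemip2 and A2m. Likeness was measured as the root mean square distance over the 10 arrays, after each profile was set to 0 at its own mean of SOX10 -dox replicates 2 to 4, and the distances were 0.45 to 0.49 on the log2 scale. Mapk8ip1, a scaffold protein of the JNK kinase cascade, had a log2 difference of 2.62 ± 0.25 (SE, adjusted p = 1.77e-04) at a distance of 0.45. Ttyh2, a membrane protein of the tweety family, followed at 0.46, Aatk, a kinase of neural cells, and Cemip2, a cell surface hyaluronidase, at 0.48, and A2m, a secreted protease inhibitor, at 0.49. The log2 differences of these 5 genes lay between 2.62 (Mapk8ip1) and 3.20 (Ttyh2), near that of Gjc3 by the way they were chosen. Among SOX10 +dox replicates 2 to 4, Ttyh2 and A2m were lowest in replicate 3, as Gjc3 was, whereas Mapk8ip1 and Cemip2 were lowest in replicate 4 and Aatk in replicate 2. The names of Ttyh2 and Aatk come from the same table of DEG as that of Gjc3.

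**Figure D3:**
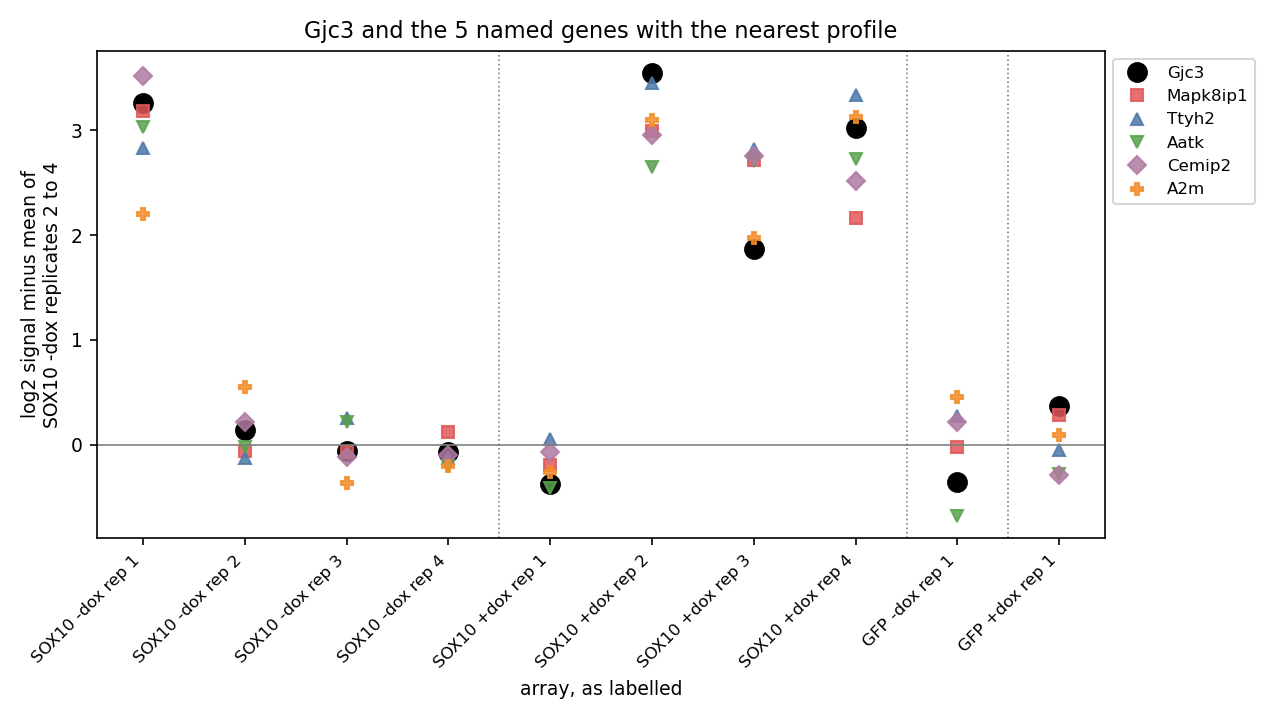
Log2 signal minus the mean of SOX10 -dox replicates 2 to 4 (y axis) of Gjc3 and the 5 genes nearest to it on each of the 10 arrays as labelled (x axis, dotted lines between groups). All 6 genes are high on SOX10 +dox replicates 2 to 4 and on replicate 1 labelled SOX10 -dox. On the other arrays they lie between -0.68 (Aatk, GFP -dox) and 0.55 (A2m, SOX10 -dox replicate 2).

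Gja1, which encodes the main gap junction protein of enteric glia and astrocytes, did not pass the test. Its log2 signal was 14.89, 14.97 and 14.89 on replicates 2, 3 and 4 of SOX10 -dox and 14.70, 14.55 and 14.24 on those of SOX10 +dox. The +dox arrays were all below the -dox arrays, by 0.20, 0.42 and 0.65 within replicates 2, 3 and 4. The log2 difference was -0.42 ± 0.22 (SE, n = 3 and 3, 95% interval -0.90 to 0.06, adjusted p = 0.417), so that a decrease of 2-fold lies outside the interval. In the GFP line Gja1 was 14.64 without and 14.31 with doxycycline, a log2 difference of -0.33 ± 0.38, and the difference between the effects in both lines was -0.09 ± 0.43. On the arrays labelled replicate 1, Gja1 was lower in SOX10 -dox (14.35) than in SOX10 +dox (14.65).

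Gjc1, a connexin of muscle and conduction tissue, also stayed short of the threshold. Its log2 signal was 10.08, 9.95 and 9.15 on replicates 2, 3 and 4 of SOX10 -dox and 10.57, 10.47 and 9.41 on those of SOX10 +dox. Among replicates 2 to 4, replicate 4 was the lowest in both groups, and the groups overlapped. The log2 difference was 0.43 ± 0.35 (SE, 95% interval -0.34 to 1.19, adjusted p = 0.658). Within replicates 2, 3 and 4 it was 0.49, 0.53 and 0.26. Leaving out replicate 4 of SOX10 -dox gave 0.14 and leaving out that of SOX10 +dox gave 0.80, the lowest and highest values with 1 array left out, and all 8 SOX10 arrays under their labels gave 0.05, none of them called. With the replicate as a block the standard error was 0.19 (adjusted p = 0.27), and Gjc1 again did not pass the test. The GFP arrays gave 9.16 and 9.38, close to both replicate 4 arrays, and the arrays labelled replicate 1 gave 10.39 (SOX10 -dox) and 9.32 (SOX10 +dox).

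Gjb1, the connexin of Schwann cells whose mutations cause an X-linked form of Charcot-Marie-Tooth neuropathy, was not called. Its log2 signal was 5.92, 5.85 and 5.52 on replicates 2, 3 and 4 of SOX10 -dox and 5.50, 6.02 and 5.29 on those of SOX10 +dox. The groups overlapped, with a log2 difference of -0.16 ± 0.25 (SE, 95% interval -0.71 to 0.39, adjusted p = 0.846). It was 6.08 and 6.09 on the GFP arrays, and 5.49 and 5.54 on the arrays labelled SOX10 -dox and SOX10 +dox replicate 1. The arrays on which Sox10 was high therefore did not stand apart for Gjb1, and the interval of its signal does not include a change of 2-fold in either direction. Since no detection limit was used, a low signal of Gjb1 cannot be told from background. The interval thus describes the array signal and does not exclude a change of the transcript.

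Gjb2 and Gjb6, which lie next to each other on rat chromosome 15 and are mutated in hereditary deafness, were not called either. Gjb2 was 2.88, 3.66 and 2.84 on replicates 2, 3 and 4 of SOX10 -dox and 3.49, 3.31 and 2.97 on those of SOX10 +dox, a log2 difference of 0.13 ± 0.27 (adjusted p = 0.896). Gjb6 was 5.26, 4.83 and 5.47 on the -dox and 5.42, 4.84 and 5.26 on the +dox arrays, a log2 difference of -0.01 ± 0.25 (adjusted p = 0.994). Both genes overlapped between the groups, and their differences changed sign between replicates. Gja4, the endothelial connexin, was 5.08, 4.73 and 5.76 on the -dox and 5.07, 5.60 and 5.45 on the +dox arrays, with a log2 difference of 0.18 ± 0.29 (adjusted p = 0.849). Between the GFP arrays Gja4 differed by 0.85 ± 0.50, from 5.12 to 5.96, also without passing the test (adjusted p = 0.824). Over the 6 members other than Gjc3, the 95% intervals of the SOX10 comparison lay between -0.90 and 1.19. Gjb2 was among the dimmest 25% of transcript clusters and the other 6 members were not, and no detection limit was used here to tell a low level from background. The level of one gene was not set against that of another, since each has its own probes.

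A further 7 connexin genes had a platform symbol, Gja3, Gja5, Gja6, Gjb5, Gjd2, Gjd4 and Gje1, and 0 of them passed the test. Their log2 differences lay between -0.34 (Gja6) and 0.38 (Gjd2, the main connexin of electrical synapses between neurons), with a median of -0.09 against -0.02 over all transcript clusters. At an unadjusted p under 0.05 in limma, 0 of these 7 genes differed in the SOX10 line, against 14.8% of all transcript clusters. Between the GFP arrays their median log2 difference was 0.46, and the largest, 1.25 ± 0.42 for Gjd4, did not pass the test (adjusted p = 0.707). Of the 14 connexin genes measured, Gjc3 was the only call. Gjc3 was named from the table of DEG, whereas these 7 were taken by platform symbol only. A further connexin named in that table alone would not have been counted, so the single call is not read as particular to Gjc3.

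Of 7 genes for pannexins and other large-pore channels, which like connexin hemichannels can release ATP or pass osmolytes, 0 passed the test (median log2 difference -0.27). Calhm2 alone, 1 of the 7, had an unadjusted p under 0.05 in limma, as did 14.8% of all transcript clusters. The 3 with the largest differences were Calhm2, Calhm5 and Lrrc8a. Calhm2, a member of the calcium homeostasis modulator channels, was 9.46, 9.33 and 8.78 on replicates 2, 3 and 4 of SOX10 -dox and 8.35, 8.39 and 7.27 on those of SOX10 +dox. Its groups did not overlap, and its log2 difference of -1.19 ± 0.32 (SE) had an adjusted p of 0.0755, while the GFP arrays differed by -1.08 ± 0.56, from 9.17 to 8.09. Calhm5 differed by -0.54 ± 0.29 (adjusted p = 0.446) and Lrrc8a, the essential subunit of volume-regulated anion channels, by 0.48 ± 0.24 (adjusted p = 0.399). The pannexin genes Panx1, Panx2 and Panx3 had log2 differences of 0.38, -0.42 and -0.27.

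A list of genes linked to connexins by binding, adhesion or turnover had 14 measured genes. Of these, 1 rose, 1 fell and 12 were not called, where 2.26% of all transcript clusters were called higher and 1.24% lower. The gene that rose was Ccn3, a matricellular protein whose carboxy-terminal part binds Cx43. Its log2 signal was 12.19, 12.41 and 12.83 on replicates 2, 3 and 4 of SOX10 -dox and 18.08, 17.87 and 15.92 on those of SOX10 +dox, with the lowest +dox value in replicate 4. The log2 difference was 4.82 ± 0.47 (SE, adjusted p = 2.13e-04), against -0.63 ± 0.82 between the GFP arrays, and the difference between these effects passed the test as well (5.45 ± 0.95, adjusted p = 0.0409). On the arrays labelled replicate 1 it was 17.70 (SOX10 -dox) and 12.16 (SOX10 +dox). The gene that fell was Mdk, which encodes midkine, a heparin-binding growth factor and not a structural part of the gap junction, with 7.26, 7.65 and 7.99 on the -dox and 6.37, 6.33 and 6.02 on the +dox arrays (log2 difference -1.39 ± 0.25, adjusted p = 0.00904). Its doxycycline effect differed between the lines by -1.61 ± 0.49, which did not pass the test (adjusted p = 0.326). Mdk was 9.68 and 9.90 on the GFP arrays, above all arrays of the SOX10 line, although the difference between the untreated lines (-2.05 ± 0.35) did not pass the test (adjusted p = 0.678). Tjp1, which encodes ZO-1, the scaffold under Cx43 plaques, differed by 0.19 ± 0.21 (adjusted p = 0.754) and Cdh2, the N-cadherin of adherens junctions, by -0.43 ± 0.24 (adjusted p = 0.459). The largest differences among the genes not called were those of Tjp3 (0.63), Dbn1 (-0.51) and Cdh2.

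Of 10 measured genes for kinases and phosphatases that act on connexins, 0 were called, and 2 had an unadjusted p under 0.05 in limma, as did 14.8% of all transcript clusters. The largest differences were those of Prkce (0.74 ± 0.22, adjusted p = 0.104), Src (0.67 ± 0.23, adjusted p = 0.173) and Cdk1 (-0.61 ± 0.42, adjusted p = 0.575), all under 2-fold. Another list held 13 measured genes of purinergic signalling and calcium release, through which ATP from hemichannels is read and calcium waves spread. Of these, 0 rose, 1 fell and 12 were not called, where 2.26% of all transcript clusters were called higher and 1.24% lower. P2ry6, a receptor for UDP, was 8.82, 9.37 and 10.03 on replicates 2, 3 and 4 of SOX10 -dox and 7.29, 7.42 and 7.94 on those of SOX10 +dox, without overlap. It fell by 1.86 on the log2 scale (SE 0.32, adjusted p = 0.00703), and between the GFP arrays it differed by -0.45 ± 0.55. The difference between these effects, -1.41 ± 0.63, did not pass the test (adjusted p = 0.543). Itpr1, a calcium release channel of the endoplasmic reticulum, had a log2 difference of 0.83 ± 0.24 (adjusted p = 0.104), the ADP receptor P2ry1 one of -0.63 ± 0.23 (adjusted p = 0.193) and Itpr2 one of 0.47 ± 0.27 (adjusted p = 0.476).

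**Figure D4:**
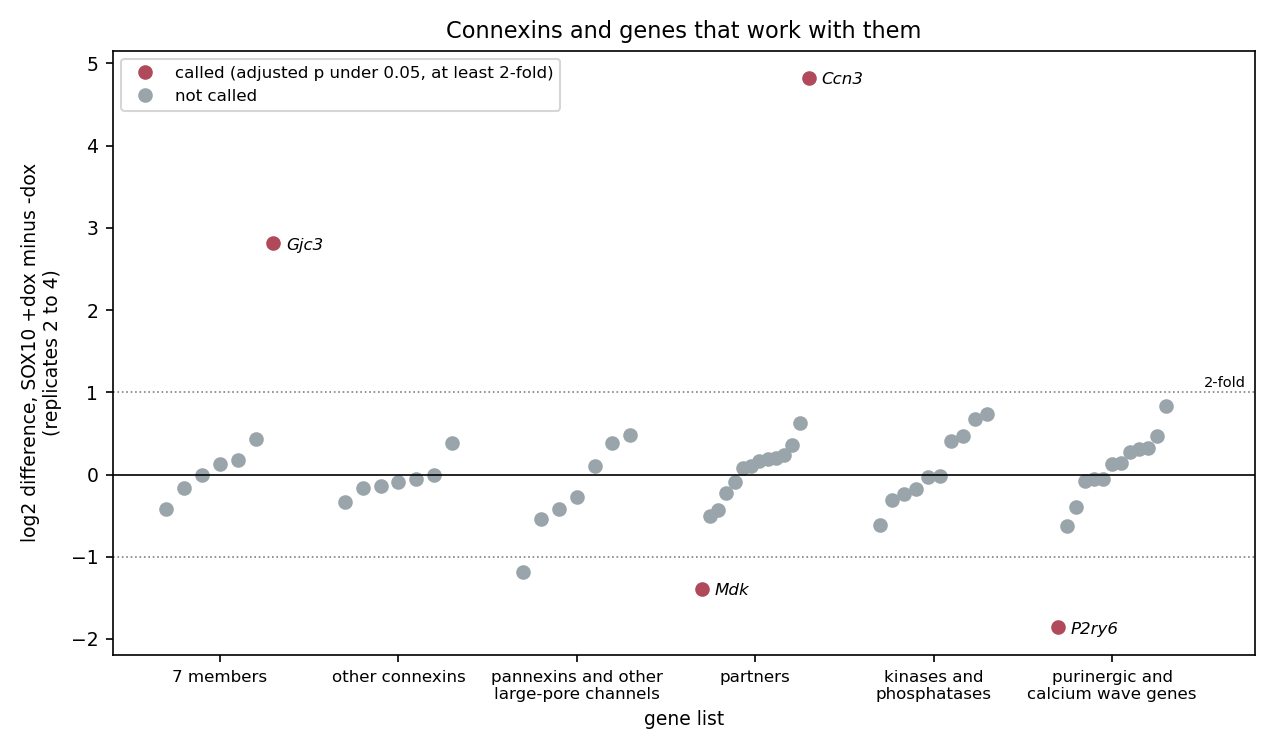
Log2 difference between SOX10 +dox and SOX10 -dox (replicates 2 to 4, y axis) of each measured gene in 6 lists (x axis), with called genes in red and named. Gjc3 (2.81) and Ccn3 (4.82) lie far above the line for 2-fold, Mdk (-1.39) and P2ry6 (-1.86) below it, and the connexins other than Gjc3 lie between -0.42 and 0.43.

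Markers of glia and of other cell types that use these connexins were read on the same arrays. For comparison, 2.26% of all transcript clusters were called higher, 1.24% lower, and 14.8% had an unadjusted p under 0.05 in limma. Of 8 measured glial markers 5 rose and 0 fell, with a mean log2 signal over the list of 7.61 to 7.86 on SOX10 -dox and 10.17 to 10.41 on SOX10 +dox replicates 2 to 4, and Gfap, at 5.45 to 5.81 and 5.44 to 6.30, was not called. The genes that rose were Sox10 itself, S100b, Erbb3, Ngfr and Nes. The list and its mean include Sox10, which doxycycline induces by design. Erbb3 (7.34) and Sox10 (6.55) had the largest log2 differences and weigh most in the mean. Fabp7 (0.01) and Vim (0.09) were, like Gfap, not called. Of 9 endothelial markers, which bear on Gja4, 0 were called (1 at an unadjusted p under 0.05 in limma), with mean signals of 4.92 to 5.18 (-dox) and 4.98 to 5.26 (+dox). Of 8 smooth muscle markers, which bear on Gjc1, 0 were called (mean signals 8.32 to 9.09 and 7.97 to 8.63), with Acta2 and Tagln as the brightest. The median log2 difference of these 8 was -0.4. Tagln alone had an unadjusted p under 0.05 in limma (log2 difference -1.04 ± 0.36, adjusted p = 0.188). Of 9 epithelial markers, which bear on Gjb2 and Gjb6, 2 rose, Krt19 (2.04 ± 0.29) and Krt14 (1.74 ± 0.36), and 7 were not called, among them Epcam, which passed the adjusted p but not 2-fold (-0.98 ± 0.21, adjusted p = 0.0272). The mean signals of this list were 5.25 to 5.43 and 5.57 to 5.79. Of 9 macrophage markers 1 fell, Cd14 (-1.57 ± 0.26), with mean signals of 5.87 to 5.93 and 5.76 to 5.91, and of 8 neuronal markers 0 were called (1 at an unadjusted p under 0.05 in limma, mean signals 6.39 to 6.61 and 6.43 to 6.72). The part of these markers in the connexin signals was not tested.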

How the data were processed

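Total RNA of JUG2 cells was hybridized to 10 Clariom S arrays. The authors used the Transcriptome Analysis Console, and the deposited values are log2 signals for each probe set on each array. The summarization and normalization methods are not given in the sources used here, and detection calls were not used here. Of 24834 probe sets, 1646 were controls, and the remaining 23188 transcript clusters entered the tests. Platform annotation named 15049 of them by 1 symbol, and the study's table of differentially expressed genes named a further 381 by 1 symbol, Gjc3 among them. That table holds results of these arrays, and no value of it was used.

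Groups were taken from the sample titles. The 4 group means were fitted in 1 linear model (limma 3.58.1, R 4.3.3), with SOX10 replicate 1 left out, and Benjamini-Hochberg adjustment of p-values ran over the whole set of transcript clusters. Calls needed an adjusted p under 0.05 and a 2-fold difference. The fit was tested on simulated data. Errors of log2 differences are SE. The methods give 4 independent experiments. The connexin genes, the lists, the use of replicates 2 to 4 and the rule for named genes (the members, called genes of the lists with up to 3 other genes of large difference, and the 5 nearest profiles of called members) were chosen with earlier results of these data known. The rule did not cover the purinergic and marker lists. The pannexins, Tjp1, P2ry6 and the other purinergic genes, and the single marker genes were named outside that rule, with their values known. The number of arrays limits the precision.

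Same-numbered arrays of the 2 SOX10 groups deviated together (correlations of deviations from the group means 0.194, 0.15 and 0.411 for replicates 2, 3 and 4), so a replicate block was run as an alternative. The other alternatives were all 8 SOX10 arrays as labelled, an adjusted p under 0.01, the 6 SOX10 arrays alone, array weights, a mean-variance trend, quantile normalization, leaving out the dimmest 25% of transcript clusters, and leaving out each of the 6 arrays. No member had a further transcript cluster to try.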

Additional observations from a re-analysis of the deposited data

Results flagged for a closer look

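2 values stood far from the other 3 arrays of their labelled group. On the array labelled SOX10 -dox replicate 1, Gjc3 had a log2 signal of 8.97 against 5.64 to 5.85 on replicates 2 to 4, and its gap to the nearest array was 0.934 of the group's range. On the same array Gja1 was 14.35 against 14.89 to 14.97, with a gap of 0.876 of the range. The check ran on 14 groups (7 genes in SOX10 -dox and SOX10 +dox), and chance alone would mark about 1 in 20 of independent groups. Both values lie on 1 array, so that rate is no measure for them. Sox10 was known before the check to run against the label of this array. The cause of the 2 values was not tested.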

How the results depend on the processing

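The call of Gjc3 was kept at an adjusted p under 0.01, with the 6 SOX10 arrays alone, array weights, a mean-variance trend, quantile normalization, the dimmest 25% of transcript clusters left out, and without each of the 6 arrays in turn (log2 difference 2.44 to 3.28, adjusted p = 2.84e-04 to 0.00946). With the replicate block, Gjc3 had a log2 difference of 2.81 ± 0.28 (adjusted p = 5.54e-04), 1 member was called higher and 0 lower, and 637 transcript clusters were higher and 375 lower, with no change in the call of any member. With all 8 SOX10 arrays as labelled, 0 members were called, 0 transcript clusters were higher and 0 lower, and the cause was not tested. At an adjusted p under 0.01, 308 were higher and 113 lower, and without single arrays 333 to 639 were higher and 140 to 324 lower, with the lower count at 140 or 149 without replicate 2 of SOX10 -dox or SOX10 +dox, and both counts reduced without replicate 3 (335 and 141 without the -dox array, 333 and 142 without the +dox array). No other member was called under any of these settings, and Gjb2, which is among the dimmest 25%, had no value in that one. The sign of 3 small differences turned, that of Gjb6 (0.09 as labelled, 0.05 with array weights, and -0.19 to 0.16 without single arrays), of Gja4 (-0.05 to 0.47 without single arrays) and of Gjb2 (-0.01 to 0.40). The number of arrays, most of all 1 per group in the GFP line, limits what can be called.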
